A study of Mus musculus with 35 samples.

Results

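CD8 single positive thymocytes whose 2 copies of Dot1l were floxed (KO) were compared with cells of mice with an intact Dot1l gene (WT), over all genes with enough counts. The comparison takes 7 of the 35 RNA sequencing libraries of the study, namely 4 KO and 3 WT libraries of sorted thymic CD8 single positive cells, chosen by the genotype and tissue in their labels. All mice were C57BL/6 and all carried 1 Cre allele, written Lcre+/- in the labels, so the controls had Cre too. The Dot1l alleles were Dot1Lfl/fl in KO and Dot1Lwt/wt in WT mice. In the published work on these mice the transgene is driven by the Lck promoter, which is active in the T lineage from early thymocytes on, so KO cells passed through the double positive stage and selection under Cre. A heterozygous group (Dot1Lfl/wt, 4 thymic libraries, called Het) is given below as levels without a test. No treatment is named, and no source used here gives the age of the mice or how many stand behind a library.

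DOT1L is the enzyme that methylates lysine 79 of histone H3, a mark found along the bodies of transcribed genes, and it works with the AF9, AF10 and AF17 proteins and with elongation factors. CD8 single positive thymocytes are the product of positive selection on MHC class I. They first resemble the cell that has just received a selecting T cell receptor signal, then lose that program, acquire receptors for egress and leave for the periphery as naive, resting cells. Memory-like and innate-like CD8 cells, marked by T-box factors or PLZF, are a small part of the thymic CD8 pool in C57BL/6 mice.

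Total counts were 7175138 to 16228232 per library over the 7 libraries, and 10296 genes were tested. Transcripts of the T cell lineage were abundant in each of the 7 (Lck 6543 to 16329 counts, Cd3e 1810 to 4825, Trbc1 1099 to 2677), while Cd4 had 0 to 2 counts and Ptcra, the pre-T cell receptor chain, 0 to 2. Several transcripts that such cells hold in abundance had few counts in both groups, among them Cd8a (57 to 170), B2m (28 to 86) and Gapdh (22 to 61), for a reason not found here, so a count in this table cannot be read as a level against another gene. The first principal component took 48.43% of the variance and separated the KO libraries (20 to 25.45) from the WT libraries (-36.76 to -26.29). From Xist and Y-linked transcripts 1 of 3 WT and 1 of 4 KO libraries came from females. Values below are CPM, counts relative to the library total after TMM scaling, in the order of the replicate numbers, and changes are log2 fold changes, KO minus WT, ± standard error with Benjamini-Hochberg adjusted p of edgeR's quasi-likelihood test. A gene is called, and said to have risen or fallen, at an adjusted p under 0.05.

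Dot1l itself had 69.6, 70.4 and 61.1 CPM in the WT libraries, 70.5, 71.4, 62.7 and 72.4 CPM in the Het libraries and 78.8, 77.4, 74.9 and 78.1 CPM in the KO libraries. The KO libraries lay above the WT libraries, with a log2 difference of 0.20 ± 0.08 that did not pass the test (adjusted p = 0.0891; 0.0472 with DESeq2). The counts cover the whole gene and the labels do not say which exons lie between the loxP sites, so these values do not check the deletion.

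Of the 10296 genes, 1919 were called (18.6%), 1222 higher in KO cells (11.9%) and 697 lower (6.77%). The 2 directions differed in size. Of the genes that rose, 496 did so by more than 1 on the log2 scale and 82 by more than 3, with a median of 0.83. Of the genes that fell, 47 did so by more than 1 and 3 by more than 3, with a median of -0.41. The KO and WT values did not overlap for 1135 of the genes called higher and 646 of those called lower. Centring on the mean log level in place of TMM moved the median of all tested genes from 0.019 to -0.109 and turned the split to 850 higher and 1573 lower, while RLE scaling (1257 higher and 640 lower) and DESeq2 (1280 and 661) kept it, and changes below are relative to the TMM median.

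Gene groups are described below by their tested members, since lists lost genes to the filter on low counts (the effector list kept 11 of 22 and the memory list 21 of 25). That filter took in all 9 groups of the study. A member near 0 counts in WT thymic cells could thus pass through a group where it was high, which can raise a list's median. A fit of the 7 libraries alone, given for some lists below, does not remove this, since such a member could still pass through the KO libraries. Where no member of a group is said to have moved in a direction, at most 2 members had an unadjusted p under 0.05 in that direction in edgeR, and DESeq2 called 1 such member, in the receptor cascade. Each count of members called stands against 11.9% of all tested genes called higher and 6.77% called lower.

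**Figure D1:**
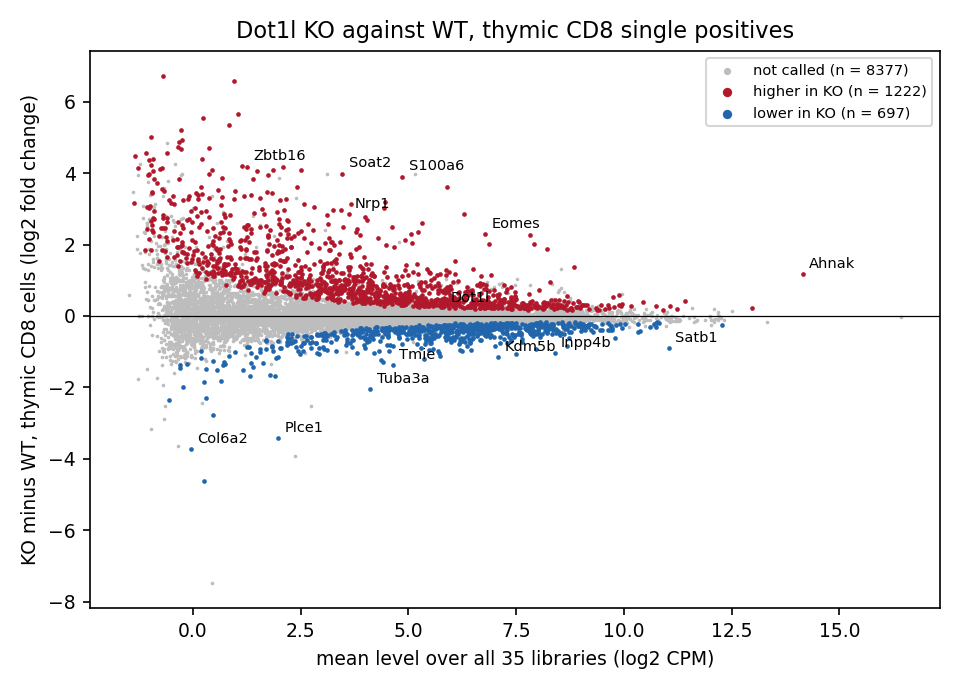
Each point is 1 of 10296 tested genes, with its mean level over all 35 libraries (log2 CPM) on the x axis and its log2 fold change, KO minus WT thymic CD8 cells, on the y axis. The 1222 genes higher in KO (red) reach further from 0 than the 697 lower genes (blue), and the lower genes lie mostly at high levels.

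The share of genes called varied with level and span. Ordered by mean level in 4 bins of 2573 to 2575 genes, the share of genes that rose was 10.7%, 13.3%, 12.3% and 11.1% from the lowest to the highest bin, while the share that fell was 1.13%, 3.65%, 7.73% and 14.6%. By genomic span, the share that rose was 8.12% in the bin of the shortest genes (up to 10152 bases) and 15.7% in the longest (56994 bases or more), and the share that fell was 3.07% and 12.8%. Genes with few counts have less power to pass the test, and how far that sets these shares was not tested. The counts of list members below were not matched for level or span.

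**Figure D2:**
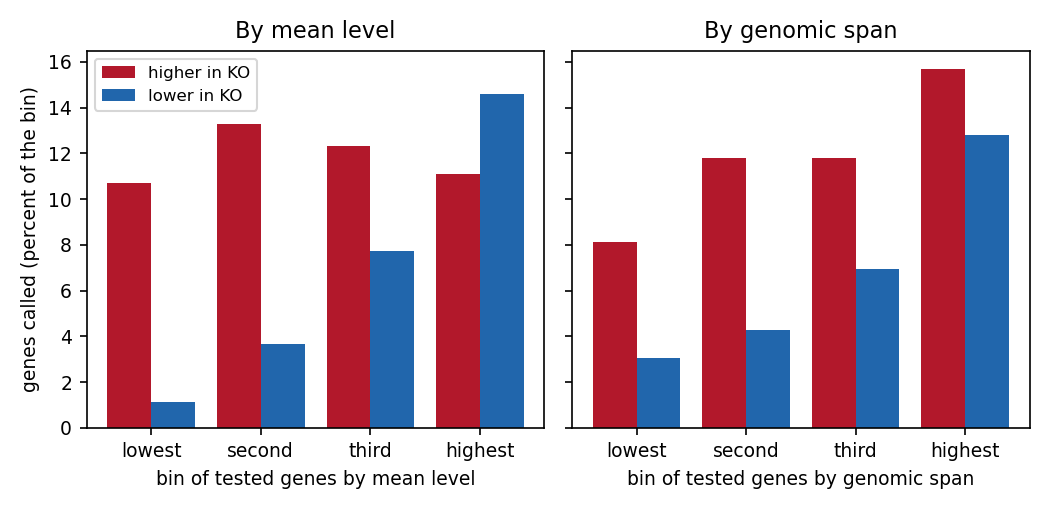
Bars give the percent of tested genes called higher (red) or lower (blue) in KO thymic CD8 cells, in 4 bins of the 10296 genes by mean level (left) and by genomic span (right). The share called lower runs from 1.13% to 14.6% with level, and both shares are highest in the bin of the longest genes.

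The genes that rose most were low or near 0 in WT thymic cells. Zbtb16, which encodes PLZF, the factor of natural killer T and other innate-like T cells, had 1.07, 0.232 and 0.0862 CPM in the WT libraries, 1.09, 0.347, 0.0971 and 0.35 CPM in Het and 3.17, 8.19, 10.4 and 5.42 CPM in KO. Each KO library was above each WT and Het library, and the change was 4.18 ± 0.56 (adjusted p = 8.54e-07). In bulk RNA a larger share of expressing cells and more RNA per cell cannot be told apart, here and for every gene below. S100a6, a calcium-binding protein of the S100 family, had 0.932, 2.85 and 1.64 CPM in WT, 1.98, 1.18, 2.14 and 2.8 CPM in Het and 27.4, 28.3, 37 and 27.3 CPM in KO libraries (3.90 ± 0.44, adjusted p = 1.96e-07). The groups did not overlap, and Het stayed in the WT range. Soat2, which esterifies cholesterol, had 0.399, 0.232 and 0.345 CPM in WT and 4.27, 4.52, 4.94 and 6.06 CPM in KO libraries (3.98 ± 0.35, adjusted p = 2.38e-11). Lgals3, galectin-3, had 0.666, 1.05 and 0.517 CPM in WT and 9.91, 5.38, 8.86 and 8.53 CPM in KO libraries (3.36 ± 0.52, adjusted p = 8.76e-06).

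Other genes with the largest rises came from unrelated families. They were Gcat, an enzyme of threonine breakdown (4.20 ± 0.55), the B-box protein gene Bspry (4.16 ± 0.51), the phospholipid transfer protein Pltp (4.08 ± 0.50), the mitochondrial coactivator Ppargc1a (3.94 ± 0.81), the heparan sulfate sulfatase Sulf2 (3.84 ± 0.87), Glrp1 (3.62 ± 0.71) and the GTPase exchange factor Dock6 (3.48 ± 0.60). All of these were at most 0.533 CPM in each WT library and at least 0.939 CPM in each KO library. A few rose from almost no counts, so a ratio of summed counts with its 95% interval (counting error only) says more than a fitted change. The protocadherin Pcdh7 had 1 count over the 3 WT libraries and 89 over the 4 KO libraries, a depth-corrected ratio of 70.1 (12.3 to 2800). The same ratio was 23.6 (3.93 to 964) for Tbkbp1, which binds the kinase TBK1, 15 (2.38 to 622) for the chemokine receptor Cxcr3, and 12.6 (3.22 to 109) for the zinc transporter Tmem163. Themis2, a relative of the thymocyte gene Themis, had 0 counts in WT and 22 in KO libraries and was at least 5.78-fold higher against a floor of 3 counts over the WT group.

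In absolute terms, the largest gains in mean CPM fell on abundant transcripts. Ahnak, a giant scaffold protein of activated and memory T cells, had 3504, 3732 and 3356 CPM in WT, 4837, 3620.1, 4903 and 4443 CPM in Het and 9098, 6465, 8615 and 7773 CPM in KO libraries (1.18 ± 0.16, adjusted p = 3.85e-06). Its Het libraries lay between 3620.1 and 4903 CPM, below all KO libraries, and 3 of 4 were above all WT libraries. Filamin A (Flna, 0.58 ± 0.07) rose without overlap of the groups. The chaperone Hsp90ab1 (0.41 ± 0.08), the translation factors Eif5a (0.28 ± 0.07) and Pabpc1 (0.23 ± 0.06), vimentin (Vim, 0.27 ± 0.08), Hspa8 (0.38 ± 0.11), Hnrnpu (0.19 ± 0.06) and the tubulin Tubb3 (0.80 ± 0.19) rose as well. Pabpc1 lost its call without WT replicate 2 (adjusted p of 0.0564). Vim lost its call without KO replicate 4 (adjusted p of 0.0939) or WT replicate 1 (adjusted p of 0.0873). Hspa8 lost its call without KO replicate 2 (adjusted p of 0.0659), WT replicate 2 (adjusted p of 0.0854) or WT replicate 3 (adjusted p of 0.0838). Hnrnpu lost its call without KO replicate 1 (adjusted p of 0.0775), KO replicate 2 (adjusted p of 0.0713), WT replicate 1 (adjusted p of 0.0607), WT replicate 2 (adjusted p of 0.12) or WT replicate 3 (adjusted p of 0.0502). Centring on the mean log level ended the calls of Pabpc1, Eif5a, Vim, Hspa8 and Hnrnpu.

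**Figure D3:**
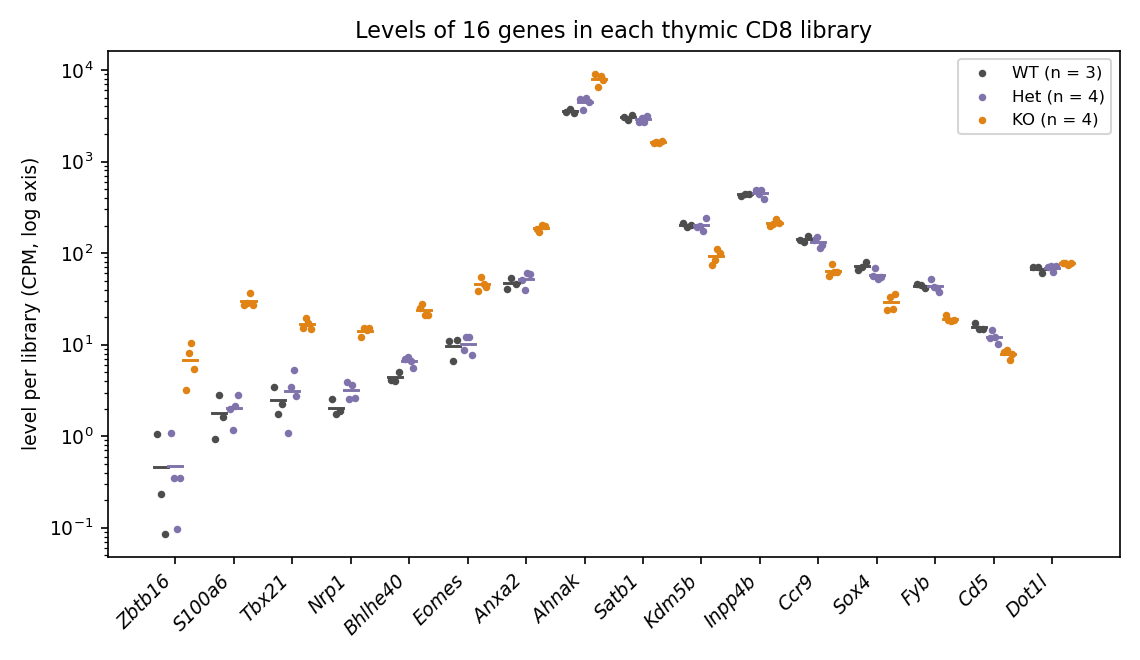
Each point is the CPM of 1 gene in 1 library of WT (3), Het (4) or KO (4) thymic CD8 cells, on a log axis, and each bar is the group's mean. KO libraries stand above WT libraries for the 8 genes on the left and below them for the 7 genes from Satb1 to Cd5. Het libraries lie near WT for genes such as S100a6 and Eomes. They lie below all WT libraries for Cd5, above them for Nrp1 and, in 3 of 4, above them for Ahnak.

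Part of the genes of effector and memory CD8 T cells rose. Of 11 tested effector genes, 6 rose and none fell, with a median of 2.17 against 0.019 for all tested genes, and 3 rose without WT replicate 2. In a fit of the 7 libraries alone 8 effector genes were tested and 4 rose (median 2.18). Tbx21 encodes T-bet, a T-box factor of effector cells, and had 3.46, 1.74 and 2.24 CPM in WT and 15.1, 19.4, 17.4 and 14.7 CPM in KO libraries (2.85 ± 0.40, adjusted p = 5.04e-06). Prdm1, which encodes BLIMP-1 (2.40 ± 0.42), and the effector factor Zeb2 (2.17 ± 0.49) rose too. The other 3 were Plek (3.62 ± 1.01), which lost its call without WT replicate 2 (adjusted p of 0.0668), the chemokine Ccl5 (2.25 ± 0.69), which lost its call without KO replicate 2 (adjusted p of 0.0794), KO replicate 3 (adjusted p of 0.0778), WT replicate 2 (adjusted p of 0.111) or WT replicate 3 (adjusted p of 0.0767), and Itgax, an integrin with 1 WT and 30 KO counts in all, whose call was lost in each of the 7 fits that left out 1 library (adjusted p 0.0565 to 0.141). The granzyme genes Gzma, Gzmb, Gzmk and Gzmm and the interferon gene Ifng had too few counts to be tested, and the perforin gene Prf1 was not called (-0.56 ± 0.67, adjusted p = 0.653).

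Of 21 tested memory genes, 13 rose and 1 fell, with a median of 1.18. In the fit of the 7 libraries alone 15 were tested, 13 rose and 1 fell, with a median of 0.79. Eomes, the other T-box factor, which drives memory and virtual memory CD8 cells, had 10.9, 6.63 and 11.3 CPM in WT, 8.82, 12, 12.1 and 7.62 CPM in Het and 38.3, 54.9, 46.4 and 42.2 CPM in KO libraries (2.29 ± 0.21, adjusted p = 5.64e-09). All KO libraries were above all others. Bhlhe40, a repressor induced by receptor stimulation, had 4.13, 4.01 and 5.09 CPM in WT and 25.3, 27.7, 20.9 and 21 CPM in KO libraries (2.42 ± 0.23, adjusted p = 3.57e-10). Fam129a (2.03 ± 0.27), the integrin chain Itga4 of VLA-4 (1.11 ± 0.17), the receptor Cd160 (1.22 ± 0.23), the nucleotide hydrolase Samhd1 (0.68 ± 0.10) and the LIM protein Crip1 (0.73 ± 0.18) rose, with Ahnak, Vim and Cxcr3 above. The adhesion receptor Cd44, by which memory cells are sorted, was at 3.01 ± 0.323 CPM in WT and 5.17 ± 1.31 CPM in KO libraries, a difference of 0.82 ± 0.32 that did not pass (adjusted p = 0.0737; DESeq2 gave 0.0284). The member that fell was the integrin chain Itgal (-0.28 ± 0.10), which lost its call without KO replicate 1 (adjusted p of 0.0664), KO replicate 2 (adjusted p of 0.0829), KO replicate 3 (adjusted p of 0.0922), KO replicate 4 (adjusted p of 0.0738) or WT replicate 1 (adjusted p of 0.409).

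Innate-like T cell genes moved in part. Of 13 tested, 4 rose and none fell, with a median of 0.70, and 1 was called lower with mean log centring, with no filter, in the 7 libraries alone or without KO replicate 4. Besides Zbtb16 and Themis2 these were Maf, a factor of innate-like and helper T cells (2, 2.91 and 3.28 CPM in WT, 12.4, 21.5, 15.2 and 17.1 CPM in KO libraries; 2.57 ± 0.38, adjusted p = 1.03e-05) and Plac8 (1.41 ± 0.39), which lost its call without WT replicate 3 (adjusted p of 0.0582). The defining receptors of natural killer T and gamma delta cells gave almost nothing: Klrb1c, Il4, Il23r, Ccr6 and Trdc had 0 counts in all 7 libraries, and Tcrg-C1, Tcrg-C2 and Tcrg-C4 had at most 2 in any. The summed level of all 16 markers of those cells was 6.9 to 10.9 CPM in WT and 12.8 to 22.8 CPM in KO libraries, Zbtb16 included, and 5 of the 16 were at 0 throughout.

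Of 21 tested S100, annexin and galectin genes with their associates, 9 rose and 1 fell (median 0.27). Annexin A2, which forms a complex with S100A10 at the membrane (Anxa2), had 40.6, 53.2 and 45.8 CPM in WT, 50.5, 39.8, 60.2 and 59.8 CPM in Het and 185, 168, 205 and 198 CPM in KO libraries (2.02 ± 0.21, adjusted p = 5.10e-08). S100a4 (3.87 ± 0.54) and galectin-1 (Lgals1, 0.89 ± 0.18) rose with S100a6 and Lgals3. Annexin A4 (Anxa4, 1.24 ± 0.38) rose and lost its call without KO replicate 3 (adjusted p of 0.102), WT replicate 2 (adjusted p of 0.161) or WT replicate 3 (adjusted p of 0.096). Annexin A5 (Anxa5, -0.45 ± 0.14) fell, and lost its call without KO replicate 2 (adjusted p of 0.0852) or WT replicate 3 (adjusted p of 0.0684).

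Most tested genes of the newly selected thymocyte fell, though the largest falls of all lay outside that list and are given below. Its members Cd24a and Cd69 were not tested. Of 16 tested genes of immature single positive cells, 10 fell and 2 rose, with a median of -0.78. Satb1, the chromatin organiser of thymocytes, had 3038, 2870.3 and 3221 CPM in WT, 2707, 2989, 2736 and 3110.2 CPM in Het and 1593, 1649, 1590.0 and 1678 CPM in KO libraries (-0.90 ± 0.06, adjusted p = 3.84e-15), the largest loss in mean CPM among called genes. Ccr9, the receptor of the thymic chemokine CCL25, had 139, 131 and 152 CPM in WT and 56, 75.5, 62.8 and 62.6 CPM in KO libraries (-1.13 ± 0.19, adjusted p = 5.60e-05). Sox4, an HMG-box factor of immature lymphocytes, had 64.6, 70.7 and 79.4 CPM in WT and 24, 33.1, 24.6 and 35.5 CPM in KO libraries (-1.28 ± 0.20, adjusted p = 1.33e-05). For each of these genes every KO library was below every WT library. Izumo1r, a folate receptor family member (-1.65 ± 0.24), Tmie (-1.37 ± 0.22), Rgmb, a BMP co-receptor (-1.69 ± 0.35), Igf2bp3 (-1.32 ± 0.33), the signalling adaptor Tespa1 (-0.83 ± 0.14), Tox (-0.50 ± 0.09) and Bcl11b, which fixes T cell identity (-0.54 ± 0.13), fell as well. Igf2bp3 lost its call without WT replicate 2 (adjusted p of 0.0594). The 2 members that rose were Tox2 (2.74 ± 0.61) and Ccr4 (1.11 ± 0.32), and Ccr4 lost its call without KO replicate 1 (adjusted p of 0.0516) or WT replicate 1 (adjusted p of 0.0799).

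Beyond that stage, the lowest fold changes belonged to a mixed set. Plce1, phospholipase C epsilon, had 0.666, 0.639 and 1.12 CPM in WT, 0.892, 0.278, 0.583 and 0.263 CPM in Het and 0, 0.0854, 0 and 0.159 CPM in KO libraries, with 29 counts in WT and 3 in KO libraries, a ratio of 12.3 (95% interval 3.8 to 62.9, counting error only). The alpha tubulin gene Tuba3a had 30.1, 45.3 and 42.5 CPM in WT, 29.3, 25.7, 31 and 21 CPM in Het and 9.78, 8.45, 5.97 and 14.2 CPM in KO libraries (-2.05 ± 0.24, adjusted p = 1.43e-07). It shares most of its sequence with another tubulin gene, and no source used here says how the counting split such reads. Fyb, the adaptor ADAP that links the receptor to integrins, had 46.5, 44.6 and 41.3 CPM in WT and 20.9, 18.5, 18.3 and 18.5 CPM in KO libraries (-1.22 ± 0.10, adjusted p = 3.86e-12). The prohormone convertase Pcsk1 (-1.69 ± 0.35), the semaphorin Sema6c (-1.51 ± 0.35), the lysophosphatidylserine receptor Gpr174 (-1.22 ± 0.17), Lypd6b (-1.17 ± 0.23) and Colq (-1.07 ± 0.18) fell without overlap of the groups. So did Bach2os (-1.07 ± 0.26), antisense to Bach2, a repressor that keeps T cells naive and which fell itself (-0.96 ± 0.15). No source used here gives the strand setting of the counting, and reads of these 2 cannot be told apart. Inpp4b, a phosphoinositide phosphatase, had 424, 445 and 442 CPM in WT and 199, 206, 234 and 214 CPM in KO libraries (-1.03 ± 0.08, adjusted p = 2.27e-13).

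Part of the factors of T cell identity and of the resting state fell. With mean log centring, 12 of 20 tested factors of the CD8 and T lineage were called lower. With TMM 7 of the 20 fell and none rose (median -0.15), where 6.77% of all tested genes fell. Besides Satb1 and Bcl11b these were Lef1 (1115, 1025 and 1150.0 CPM in WT, 735, 744, 698 and 679 CPM in KO; -0.62 ± 0.08), Ets1 (-0.44 ± 0.07), Runx1 (-0.63 ± 0.14), the E protein Tcf12 (-0.22 ± 0.06) and the coreceptor chain Cd8b1 (-0.85 ± 0.29), with 27 to 104 counts per library, which lost its call without KO replicate 2 (adjusted p of 0.109), KO replicate 3 (adjusted p of 0.0932), WT replicate 1 (adjusted p of 0.0565), WT replicate 2 (adjusted p of 0.111) or WT replicate 3 (adjusted p of 0.1). Lef1's partner Tcf7 was at 705 ± 21.8 CPM in WT and 661 ± 39.4 CPM in KO libraries (-0.09 ± 0.07, adjusted p = 0.416; with mean log centring -0.22 and 0.0342), and Cd8a at 9.98 ± 0.844 and 8.98 ± 1.47 CPM (-0.15 ± 0.26, adjusted p = 0.774). Of 22 tested naive and quiescence genes, 11 fell and 1 rose (median -0.31). Btg1, which promotes messenger RNA turnover in resting cells, had 296, 225 and 288 CPM in WT and 147, 149, 129 and 139 CPM in KO libraries (-0.93 ± 0.10, adjusted p = 5.16e-09). The forkhead factor Foxp1 (-0.40 ± 0.06), alpha-actinin 1 (Actn1, -0.42 ± 0.08), Btg2 (-0.49 ± 0.13) and the lymph node homing receptor Ccr7 (-0.35 ± 0.10) fell, and Ccr7 lost its call without KO replicate 3 (adjusted p of 0.0601) or WT replicate 3 (adjusted p of 0.0664). The gene that rose was S1pr1, the egress receptor (0.30 ± 0.09). Its call was lost with mean log centring, and it lost its call without KO replicate 1 (adjusted p of 0.0722), WT replicate 1 (adjusted p of 0.0555), WT replicate 2 (adjusted p of 0.0859) or WT replicate 3 (adjusted p of 0.0568). Of 22 tested genes of mature cells and egress, 4 rose and 6 fell, among them Gimap6 (-0.83 ± 0.14), Foxo3 (-0.41 ± 0.07) and the MHC class I gene H2-K1 (-0.26 ± 0.07), which lost its call without WT replicate 1 (adjusted p of 0.101). Those 4 rises were 0 with mean log centring or without WT replicate 3 and 1 or 2 without KO replicate 1, KO replicate 2, WT replicate 1 or WT replicate 2 or with no robust estimates, and 3 fell without WT replicate 1.

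Part of the transcripts that rise with selecting receptor signals fell. Of 15 tested, 5 fell and none rose (median -0.42), while 5 of the 15 had a positive change. The number that fell was 3 without KO replicate 3, WT replicate 1 or WT replicate 3 and 8 with mean log centring, and 1 was called higher in the 7 libraries alone. Cd5, the negative regulator whose level tracks the strength of the selecting signal, had 17.2, 14.9 and 14.7 CPM in WT, 11.9, 14.5, 12.2 and 10.3 CPM in Het and 8.4, 8.79, 6.8 and 7.89 CPM in KO libraries (-0.97 ± 0.14, adjusted p = 1.46e-06). The KO libraries were all below the WT libraries, and the Het libraries lay between 10.3 and 14.5 CPM, above all KO libraries. Its relative Cd6 fell by less (-0.60 ± 0.11). Nr4a1, an early gene of receptor signalling, had 35.2, 39.5 and 40.2 CPM in WT and 23.3, 28.5, 23.1 and 22.8 CPM in KO libraries (-0.65 ± 0.17, adjusted p = 0.00411). Egr1 (-0.71 ± 0.21) fell too, but lost its call without KO replicate 3 (adjusted p of 0.0657), WT replicate 1 (adjusted p of 0.0558) or WT replicate 3 (adjusted p of 0.0892). Egr2 (-0.68 ± 0.23) fell and lost its call without KO replicate 1 (adjusted p of 0.0588), KO replicate 3 (adjusted p of 0.093), KO replicate 4 (adjusted p of 0.0647), WT replicate 1 (adjusted p of 0.0928) or WT replicate 3 (adjusted p of 0.158). Of 24 tested immediate early and NF-kappa B response genes, 8 fell and 2 rose (median -0.44). The inhibitor Nfkbia (-0.51 ± 0.09), Rel (-0.60 ± 0.15), Zfp36 (-0.52 ± 0.13) and Junb (-0.61 ± 0.17) fell, while the AP-1 gene Fosl2 rose (0.72 ± 0.16). On leaving out KO replicate 2, KO replicate 3, WT replicate 1 or WT replicate 3, or with mean log centring, 1 of the 24 was called higher.

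The receptor cascade itself was lower in part. Of 38 tested genes, 10 fell and none rose (median -0.16), where 6.77% of all tested genes fell. In the bin of highest level 14.6% of genes fell, and in the bin of the longest genes 12.8%. The receptor zeta chain Cd247 had 52.3, 49 and 45.8 CPM in WT and 32.8, 31.5, 32.7 and 30.9 CPM in KO libraries (-0.61 ± 0.09, adjusted p = 3.19e-06). The phospholipase Plcg1 (-0.38 ± 0.06) and the phosphatase CD45 (Ptprc, -0.40 ± 0.09) fell with Tespa1. Under mean log centring 22 of the 38 were called lower, and without WT replicate 2 the number was 6.

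Genes of the BCL2 family, which holds both survival and death genes, and of the p53 response fell in part, where 6.77% of all tested genes fell. Of 8 tested BCL2 family genes, 3 fell and none rose: Mcl1 (-0.49 ± 0.09), Bcl2l1, which encodes BCL-XL (-0.58 ± 0.17), and the killer PUMA (Bbc3, -0.91 ± 0.26), which lost its call without KO replicate 3 (adjusted p of 0.0761) or WT replicate 2 (adjusted p of 0.123). Of 17 tested p53 targets, 5 fell and none rose (median -0.22), with Sesn1 at -0.39 ± 0.10 and Btg2 and Bbc3 as above. The number of p53 targets that fell was 2 without WT replicate 2 and 3 without KO replicate 1.

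**Figure D4:**
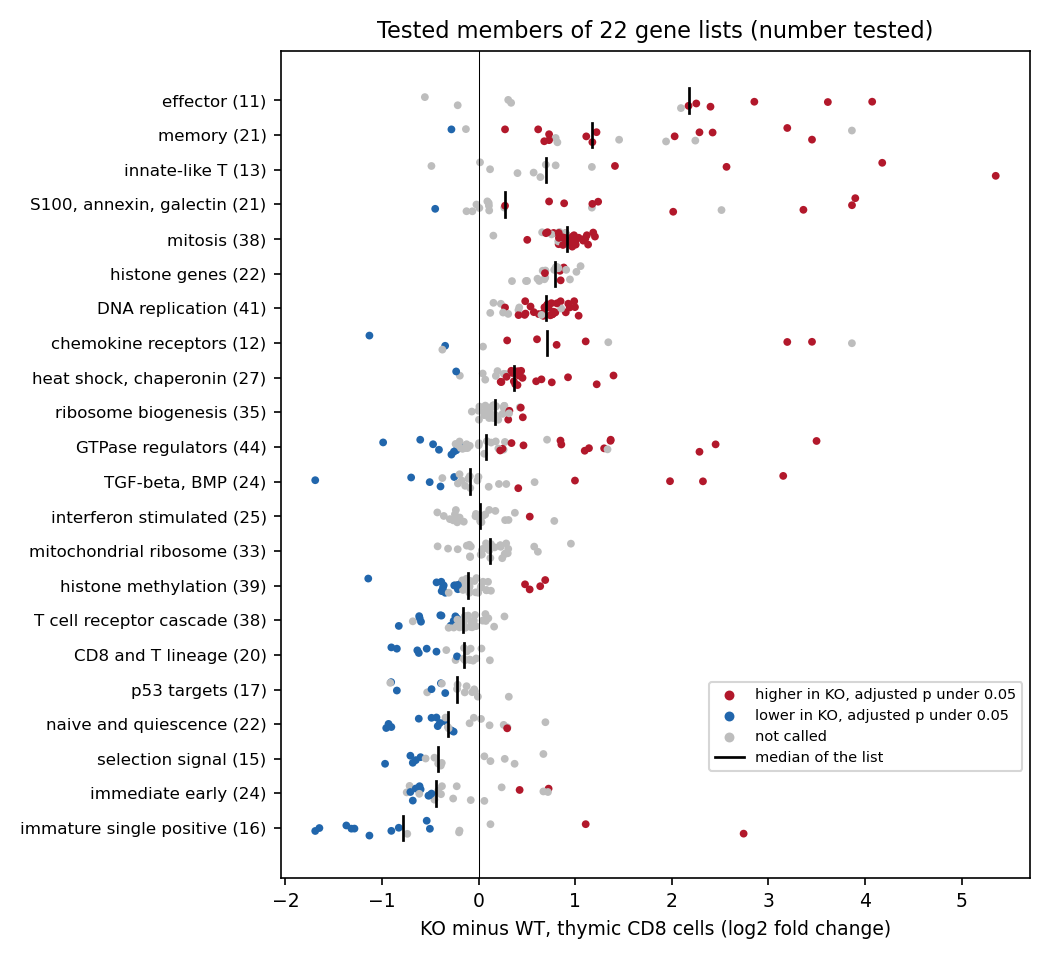
Each point is the log2 fold change, KO minus WT thymic CD8 cells, of 1 tested member of a gene list (number tested in brackets), red where called higher, blue where called lower and grey where not called; black bars mark list medians, and vertical scatter has no meaning. Mitosis and DNA replication members all lie to the right of 0 and effector and memory members mostly so. Immature single positive, immediate early and selection genes lie mostly to the left.

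Genes of the cell cycle rose. All 41 tested genes of DNA replication had a positive change, 31 passed the test and none fell, where 11.9% of all genes were called higher. Their median was 0.70. Mcm2, a subunit of the replicative helicase, had 169.8, 193 and 189 CPM in WT, 192, 208, 199 and 199 CPM in Het and 293, 318, 273 and 332 CPM in KO libraries (0.72 ± 0.07, adjusted p = 8.29e-10). The other helicase subunits Mcm3 (0.75 ± 0.12), Mcm4 (0.62 ± 0.08), Mcm5 (0.77 ± 0.12) and Mcm6 (0.70 ± 0.08), DNA polymerase alpha (Pola1, 0.76 ± 0.09) and the ribonucleotide reductase Rrm1 (0.67 ± 0.11) rose by similar amounts. The KO libraries were all above the WT libraries for 37 of the 41, where this held for 17.3% of all genes. The count was 22 without WT replicate 1.

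Several of these promoters hold the letters of the E2F site, through which the replication genes are known to be driven in S phase. TTTCGCGC or TTTGGCGC, on either strand, was present in the 300 bases around the start (250 before, 50 after) of 11 of 33 replication genes with a RefSeq window (33.3%), against 160 of 7808 tested genes (2.05%) and 267 of all 32851 windows (0.813%). Of the 11 genes, 9 were called higher, as were 31 of all 41 tested replication genes. Whether the letters go with the change was not tested. Mitosis genes held it in 2 of 33 windows (6.06%). The 2 stretches below are shown because they carry the letters in genes described above. They are RefSeq sequences of build GRCm38.p6, read 5′ to 3′ on the strand of the gene and lying before its start, with the matched letters in capitals, where overlapping matches run together.
Mcm5, chr8:75109309-75109458, plus strand: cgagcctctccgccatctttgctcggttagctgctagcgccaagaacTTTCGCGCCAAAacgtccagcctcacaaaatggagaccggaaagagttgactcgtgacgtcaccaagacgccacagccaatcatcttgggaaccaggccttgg
Mcm6, chr1:128359726-128359855, minus strand: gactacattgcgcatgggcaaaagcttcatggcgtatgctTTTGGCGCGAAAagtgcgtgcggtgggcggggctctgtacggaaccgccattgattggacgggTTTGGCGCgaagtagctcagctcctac
A match of letters is a description of the sequence, not a bound site.

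All 38 tested genes of mitosis and cytokinesis had a positive change, 29 rose and none fell (median 0.92). Smc2, a condensin subunit (77.5, 106 and 93.8 CPM in WT, 162, 156, 133 and 158 CPM in KO; 0.71 ± 0.10, adjusted p = 7.37e-07), the cytokinesis factor Ect2 (1.00 ± 0.20), Mybl2 (0.94 ± 0.19), the checkpoint gene Mad2l1 (0.83 ± 0.18), the kinetochore gene Knl1 (1.10 ± 0.24) and the kinase Plk1 (1.01 ± 0.22) were among them. The proliferation marker Mki67 was at 9.99, 16.3 and 11.8 CPM in WT and 26.3, 26.4, 18.7 and 25.1 CPM in KO libraries (0.90 ± 0.36). All KO libraries were above all WT libraries, but the adjusted p was 0.0883 in the fit over 35 libraries and 0.000579 in a fit of the 7 libraries alone. Topoisomerase II alpha (Top2a) gave 0.91 ± 0.39 (adjusted p = 0.113; 0.0146 in the 7 libraries alone). The count of mitosis genes was 15 without WT replicate 1 and 18 without WT replicate 3. Of 22 tested histone genes, all positive (median 0.79), 4 passed, among them H2afz (0.69 ± 0.14) and Hist1h1a (0.88 ± 0.22). The number of histone genes that passed was 2 without KO replicate 2 or WT replicate 1, 14 without KO replicate 3 and 7 with no robust estimates. Histone genes of a cluster share sequence, and poly(A) selection leaves out most of their transcripts. Of 17 tested genes of the nuclear envelope, 4 rose and none fell, among them the B-type lamins Lmnb1 (0.72 ± 0.11) and Lmnb2 (0.48 ± 0.11) and the lamina protein Tmpo (0.48 ± 0.09), and 1 was called lower with mean log centring, in the 7 libraries alone or without KO replicate 2.

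Many chaperone genes rose as well. Of 27 tested heat shock proteins and chaperonin subunits, 19 rose and 1 fell (median 0.36). The mitochondrial chaperonin Hspd1 had 157, 143 and 148 CPM in WT, 189, 157, 176 and 201 CPM in Het and 281, 279, 239 and 209.8 CPM in KO libraries (0.76 ± 0.10, adjusted p = 6.38e-07). Its partner Hspe1 (0.42 ± 0.10), Hsp90aa1 (0.93 ± 0.16), the mitochondrial Hspa9 (0.36 ± 0.08) and the cytosolic chaperonin subunits Cct7 (0.34 ± 0.07) and Tcp1 (0.38 ± 0.07) rose. Hspe1 lost its call with mean log centring (adjusted p = 0.0641) and lost its call without WT replicate 2 (adjusted p of 0.0635). The member that fell was Dnajb6 (-0.23 ± 0.08), and it lost its call without KO replicate 1 (adjusted p of 0.0947), KO replicate 3 (adjusted p of 0.066), WT replicate 1 (adjusted p of 0.078) or WT replicate 3 (adjusted p of 0.169). The number that rose was 10 with mean log centring, 8 without WT replicate 2 and 12 without KO replicate 2, so that count rests on the library and on the scaling, while the median was 0.235 with mean log centring and 0.322 to 0.442 without 1 library.

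The letters of the heat shock element, searched as TTC, GAA and TTC or as GAA, TTC and GAA with 2 free bases between them, on either strand, were found in 4 of 22 heat shock genes with a window (18.2%) against 47 of 7808 tested genes (0.602%). The 4 were Hspd1, Hspe1, Hsph1 and Dnajb6. Hspd1 and Hspe1 face away from each other and their windows share 285 bases, so their matches are the same letters. The stretch before the start of Hspe1 is shown for that shared site, in the same form as above.
Hspe1, chr1:55088018-55088147, plus strand: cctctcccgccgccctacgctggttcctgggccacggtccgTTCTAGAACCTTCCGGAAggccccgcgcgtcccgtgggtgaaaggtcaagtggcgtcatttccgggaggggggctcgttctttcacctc
Of the 4 genes 3 were called higher and Dnajb6 lower, where 19 of all 27 tested heat shock genes rose and 1 fell. Hsph1 lost its call without KO replicate 2 (adjusted p of 0.0804), WT replicate 2 (adjusted p of 0.0773) or WT replicate 3 (adjusted p of 0.0698), and the call of Dnajb6 depended on the libraries as given above.

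Calls in other biosynthetic groups are given against 11.9% of all tested genes called higher and 6.77% called lower. Of 35 tested genes of ribosome biogenesis, 4 rose and none fell (median 0.17), with Nop58, a snoRNP protein, at 0.46 ± 0.09. The share that rose was thus near that of all genes. The change was positive for 33 of the 35, and in edgeR 12 had an unadjusted p under 0.05 upward and 0 downward. None of 33 mitochondrial ribosomal protein genes was called by edgeR or DESeq2 (2 had an unadjusted p under 0.05), and 2 of 31 nuclear genes of oxidative phosphorylation rose, with medians of 0.12 and 0.11. The ribosome biogenesis count was 1 with mean log centring and 2 without KO replicate 2, KO replicate 4, WT replicate 1 or WT replicate 2, and that of oxidative phosphorylation was 0 with mean log centring and 1 without each library other than KO replicate 3. Of 22 glycolysis genes 2 rose, Tpi1 (0.80 ± 0.12) and the hexokinase Hk2 (1.07 ± 0.17), and 2 fell, the pyruvate dehydrogenase kinases Pdk1 (-0.84 ± 0.12) and Pdk2 (-0.61 ± 0.12), where mean log centring called 6 lower and the 7 libraries alone 4 higher. Of 25 interferon stimulated genes 1 rose (Gbp3, 0.53 ± 0.14) and none fell, while 2 were called lower with mean log centring or in the 7 libraries alone and 1 without KO replicate 3. In the cholesterol list of 22, Soat2 contrasted with the exporter Abcg1, which fell (-0.55 ± 0.10).

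Among partners of DOT1L and elongation factors, 3 of 22 rose and 3 fell (median -0.04), or 2 and 6 with mean log centring. The super elongation complex scaffold Aff4 fell (-0.42 ± 0.07), as did Supt4a (-0.45 ± 0.09), while the FACT subunits Supt16 (0.34 ± 0.07) and Ssrp1 (0.37 ± 0.08) rose. Of 27 Polycomb genes 2 rose and 7 fell, but 1 fell without WT replicate 1 and 3 without KO replicate 1 or KO replicate 2, and 1 rose with mean log centring. Phf19, an accessory subunit that recruits PRC2, had 10.7, 18.3 and 14.5 CPM in WT, 12.6, 14.8, 19 and 13.1 CPM in Het and 48.5, 55.1, 38.1 and 44.8 CPM in KO libraries (1.66 ± 0.21, adjusted p = 2.85e-07), with no overlap. Jarid2, another accessory subunit, fell (-0.49 ± 0.07), and the catalytic Ezh2 was at 228 ± 22.3 CPM in WT and 268 ± 18.2 CPM in KO libraries (0.23 ± 0.12, adjusted p = 0.202; 0.0459 in the 7 libraries alone). Of 39 other lysine methyltransferases and demethylases, 11 fell and 4 rose (median -0.11), and mean log centring called 20 lower. Among all tested genes 6.77% fell and 11.9% rose. Kdm5b, a demethylase of lysine 4 of histone H3, had 216, 195 and 201 CPM in WT, 193, 199.8, 175 and 240.4 CPM in Het and 74.4, 84.3, 110.4 and 99.2 CPM in KO libraries (-1.14 ± 0.10, adjusted p = 7.52e-12). The methyltransferase gene Kmt2c (-0.38 ± 0.07) and the demethylase genes Kdm4a (-0.37 ± 0.07) and Kdm6b (-0.43 ± 0.10) fell. Nsd2 (0.69 ± 0.14), Suv39h1 (0.48 ± 0.11), Kmt5a (0.53 ± 0.12) and Smyd2 (0.64 ± 0.16) rose.

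Surface and signalling genes split by member. Nrp1, a coreceptor of semaphorins found on regulatory and natural killer T cells, had 2.53, 1.74 and 1.9 CPM in WT, 3.87, 2.57, 3.59 and 2.63 CPM in Het and 12.1, 15.1, 14.6 and 15.2 CPM in KO libraries (2.85 ± 0.22, adjusted p = 3.66e-13). Of 12 chemokine and egress receptors 6 rose and 2 fell, with Cxcr4, which retains cells in the marrow and thymus, at 0.81 ± 0.15. Without WT replicate 2 the number that rose was 3, and without KO replicate 3 or WT replicate 3 the number that fell was 1. Of 23 integrins and adhesion molecules 6 rose and 3 fell, among them E-cadherin (Cdh1, 1.86 ± 0.34) and Cd96 (-0.64 ± 0.12). The number of those that rose was 2 without WT replicate 2 or with no filter and 3 without KO replicate 1, KO replicate 2, KO replicate 3 or WT replicate 3, and mean log centring gave 4 higher and 6 lower. Of 30 cytokine receptors, JAKs and STATs 2 rose and 4 fell, and the best supported were Stat5b (-0.77 ± 0.08), Stat5a (-0.34 ± 0.08) and the gp130 chain Il6st (-0.83 ± 0.11), which all fell. None of the 30 was called higher without WT replicate 2 or WT replicate 3, 1 was without any 1 of KO replicates 1 to 4, and mean log centring called 8 lower.

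Of 24 genes of TGF-beta and BMP signalling 5 rose and 5 fell. The ligand Tgfb3 (2.4, 4.77 and 1.55 CPM in WT, 8.81, 10.8, 15.1 and 13.2 CPM in KO; 1.98 ± 0.30), the receptors Acvr1 (2.32 ± 0.47) and Acvr2a (1.00 ± 0.22) and the inhibitor Smad6 (3.15 ± 0.77) rose, and the receptor Acvr1b (-0.70 ± 0.13), the mediator Smad4 (-0.39 ± 0.07) and the ubiquitin ligase Smurf1 (-0.51 ± 0.09) fell. The number of TGF-beta and BMP genes that fell was 10 with mean log centring, and 3 rose without KO replicate 4. Of 14 Notch genes 4 rose, namely the ligand Jag2 (1.12 ± 0.19) and the target genes Hes1 (3.83 ± 0.77), Heyl (3.56 ± 0.80) and Nrarp (1.46 ± 0.38), and 2 fell, Maml2 (-0.47 ± 0.09) and Notch1 (-0.36 ± 0.10), of which Notch1 lost its call without WT replicate 2 (adjusted p of 0.0957). Of 44 regulators of small GTPases 14 rose and 8 fell, led by Iqgap2 (0.86 ± 0.08), Dock9 (0.85 ± 0.10), Dock5 (1.14 ± 0.14), Arhgap21 (1.37 ± 0.20) and Chn2 (1.37 ± 0.23) upward and Rapgef2 downward (-0.60 ± 0.08). The number of GTPase regulators that fell was 13 with mean log centring and 5 without KO replicate 4 or WT replicate 1. Among Kruppel-like factors Klf7 fell (-0.74 ± 0.08) and Klf9 rose (1.49 ± 0.38).

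Summed markers of other cells differed between the groups for some lists. As for other genes, few or 0 counts in this table need not mean a low level. The summed level of 17 natural killer markers was 11.1 to 17.4 CPM in WT and 56.7 to 77.9 CPM in KO libraries, and Eomes and Tbx21, which are on that list, made up most of it, while 10 of the 17, with Ncr1, Klrb1c and Tyrobp among them, had 0 counts in all 7 libraries. For 20 myeloid markers the sums were 2.67 to 3.59 and 4.46 to 7.57 CPM, with Itgam, Adgre1, Csf3r and S100a8 among the 7 at 0. Of the 4 tested myeloid markers 2, Itgax and Cebpb, were called higher, and none was without KO replicate 2, KO replicate 4, WT replicate 1 or WT replicate 2. For 16 B cell markers they were 82.5 to 102 and 99.8 to 141 CPM, most of it Ighm. None of the 16 was at 0 throughout, and 7, with Cd22 among them, had at most 3 counts in each library. Cd79b had 6 to 15 counts per WT and 16 to 24 per KO library, and Cd79a 2 to 5 and 0 to 4. Of the 11 tested B cell markers 1 was called higher, and 0 were without WT replicate 3. Thymic stroma and epithelium markers summed to 10.2 to 14.9 and 14.1 to 16.1 CPM, and of the 4 tested 1 was called higher, Pdgfrb, with 3 to 11 counts per WT and 13 to 50 per KO library. The sums were for erythroid and platelet markers 3.86 to 4.3 and 2.33 to 6.74 CPM. Among MHC class II genes, H2-Aa was unsteady between libraries, with 5.99, 1.28 and 1.38 CPM in WT and 10.5, 4.78, 4.94 and 4.31 CPM in KO libraries (1.24 ± 1.36, adjusted p = 0.616). H2-Eb1 had 12 to 26 counts per WT and 42 to 70 per KO library, and H2-Ab1 0 to 4 and 4 to 20. Cd74, on the same marker list, had 43 to 59 and 25 to 75. What part such cells or genes had in the results above was not tested. Of 12 genes of double positive thymocytes 2 rose and 2 fell, with 1 or 2 in each direction on leaving out any 1 library, and Rag1 had 12.9, 6.86 and 4.05 CPM in WT and 23.5, 17.8, 11.3 and 19.3 CPM in KO libraries (1.21 ± 0.41, adjusted p = 0.0369), and lost its call without KO replicate 1 (adjusted p of 0.0942), KO replicate 2 (adjusted p of 0.0667), KO replicate 4 (adjusted p of 0.0734), WT replicate 2 (adjusted p of 0.143) or WT replicate 3 (adjusted p of 0.198), with Rag2 at 2 to 10 counts in each of the 7.

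Dot1l lies on chromosome 10, where genes linked to a modified allele can carry its strain of origin. Within 10 Mb of it, 12 of 150 tested genes rose (8%) and 4 fell (2.67%), against 41 (12.8%) and 26 (8.12%) of the 320 others on the chromosome, and the difference was not tested. The best supported were Ckap4 (2.85 ± 0.43), the adenosine receptor Adora2a (0.90 ± 0.17), Lmnb2 and Nfic (0.59 ± 0.14) upward, and Col6a2 (-3.73 ± 0.56) and Pip5k1c (-0.35 ± 0.08) downward. Without WT replicate 2 the change of Ckap4 was 4.42.

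Naive splenic CD8 cells of the same genotypes (4 KO and 4 WT libraries) are the stage that follows, and the difference between the 2 changes was tested as an interaction. It was called for 653 of 10296 genes (6.34%), 343 with a higher KO minus WT change in thymic cells (3.33%) and 310 with a lower one (3.01%). Genes of replication, mitosis, heat shock and ribosome biogenesis were among the first. A higher change in thymic cells was called for 14 of 41 replication genes, 5 of 38 mitosis genes and 7 of 27 heat shock genes. It was called for 8 of 35 ribosome biogenesis genes too, and none of these lists had a member with a lower one. The median KO minus WT change was 0.70 in thymic and 0.08 in naive cells for replication, 0.36 and 0.03 for heat shock, and 0.92 and 0.41 for mitosis. For ribosome biogenesis it was 0.17 in thymic and -0.19 in naive cells, so that difference holds a negative naive median as well, and 4 of the 35 rose in thymic cells. Mcm6 changed by 0.70 ± 0.08 in thymic and 0.13 ± 0.08 in naive cells, a difference of 0.57 ± 0.12 (adjusted p = 0.00125).

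**Figure D5:**
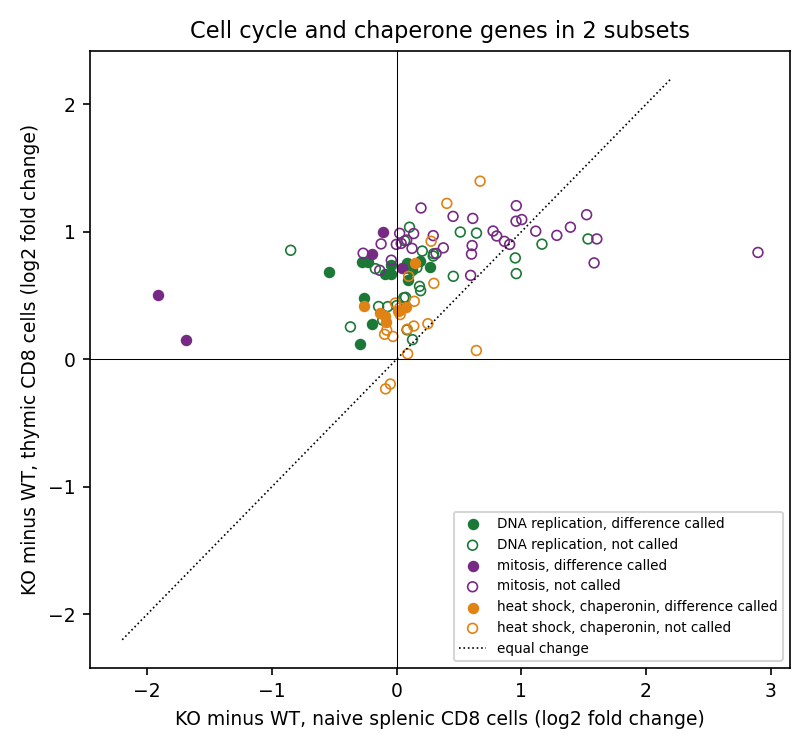
Each point is a tested gene of DNA replication, mitosis or the heat shock list, with its KO minus WT log2 fold change in naive splenic CD8 cells on the x axis and in thymic CD8 cells on the y axis; filled points passed the test of the difference. The 14 filled replication genes and 7 filled heat shock genes lie above the dotted line of equal change.

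Other genes differed between the stages in the opposite sense. Of the selection genes 3 of 15, and of the immediate early genes 4 of 24, had a lower change in thymic cells and none a higher one. Nr4a1 changed by -0.65 ± 0.17 in thymic and 1.18 ± 0.20 in naive cells (difference -1.83 ± 0.26, adjusted p = 9.24e-06), and Sox4 by -1.28 ± 0.20 and 0.26 ± 0.23 (difference -1.54 ± 0.30, adjusted p = 0.00148). Kdm5b changed by -1.14 ± 0.10 and -0.10 ± 0.09 (difference -1.04 ± 0.13, adjusted p = 9.59e-07), and Satb1 by -0.90 ± 0.06 and -0.34 ± 0.05 (difference -0.56 ± 0.08, adjusted p = 7.57e-06). Bhlhe40 and Nrp1 rose in thymic cells by less than in naive cells, with differences of -2.29 ± 0.44 and -2.05 ± 0.35, while Eomes rose by more (difference 1.01 ± 0.27, adjusted p = 0.019). For Tbx21 the changes were 2.85 ± 0.40 and 2.22 ± 0.27 and for Zbtb16 4.18 ± 0.56 and 6.49 ± 0.67, and neither difference passed (adjusted p = 0.545 and 0.295). Ikzf2, the Ikaros family factor Helios, was at 681 ± 95.6 CPM in WT and 668 ± 31.5 CPM in KO thymic libraries, a change of -0.03 ± 0.23 against 2.28 ± 0.23 in naive cells (difference -2.31 ± 0.32, adjusted p = 3.83e-05). Lamin A/C (Lmna) changed by -0.06 ± 0.26 in thymic and 3.12 ± 0.29 in naive cells (difference -3.18 ± 0.40, adjusted p = 8.13e-07).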

How the data were processed

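RNA was measured in sorted CD8 cells, and per the labels' protocols stranded poly(A) libraries (TruSeq) gave 65-base single reads. TopHat, TopHat2 2.1.0 and HTSeq 0.9.1 and the builds GRCm38 and mm10 are named per the submitters' processing notes. No source used here gives the annotation release or strand setting. The authors deposited raw counts, whole reads per Ensembl gene, for 52636 genes in 35 libraries, of which 19776 genes had a count. GENCODE M21 gave symbols for 52489 identifiers. No source says that replicates were separate mice, and p-values then measure only how far these libraries spread, which may be technical.

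In R 4.3.3, edgeR 4.0.16 (filterByExpr, TMM, robust quasi-likelihood fit of 9 groups over all 35 libraries, 26 residual degrees of freedom) tested KO against WT, two-sided, with Benjamini-Hochberg adjustment over 10296 genes. Standard errors are the log2 change over the square root of F. On simulated counts for KO against WT over 10296 genes, the fit called 90 of 100 genes changed by 1 on the log2 scale and 42 of 100 changed by 0.5, with 6 false calls among 138. The changes were placed only in genes with an average log2 CPM over 1, so these shares do not cover genes of lower level. Apart from them each gene had the same mean in all 9 groups, and far fewer genes changed than were called in the data. CPM used TMM totals, and 95% intervals cover counting error only.

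The comparison, the 46 gene lists and the named genes were chosen with earlier results of these data known. Promoter windows came from RefSeq (GRCm38.p6). Named were Dot1l; the 15 highest and 15 lowest changes of called genes (average log2 CPM not under 1) whose groups do not overlap, with the call kept and the change within 1.5 times on leaving out any library, leaving out predicted models and receptor segments; the 10 largest gains and losses in mean CPM; up to 6 called members of a list by adjusted p; and up to 6 called genes within 10 Mb of Dot1l. Acvr2a, Anxa4, Anxa5, Cd44, Cd8a, Crip1, Dnajb6, Ezh2, H2-Aa, Hes1, Hspe1, Hsph1, Igf2bp3, Ikzf2, Itgal, Junb, Kdm6b, Lmna, Mcm3, Mki67, Prf1, Smad6, Smyd2, Tcf7 and Top2a lie outside that rule or were named for what they encode, and were picked with their values in view. Not every gene under the rule is described. Alternatives were RLE scaling, mean log centring, no or a stricter filter (4 libraries with CPM of 1 or more), DESeq2 1.42.0, no robust estimates, a fit of only the compared libraries, a replicate block, a sex covariate and each library left out. Some items are not reported here.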

Additional observations from a re-analysis of the deposited data

Results flagged for a closer look

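Among 192 genes described, 14 had 1 KO library far from the other 3, by a test that flags about 1 group in 20 by chance. KO replicate 3 stood apart for S100a6 (37.0 CPM), Aff4 (132 CPM), Mki67 (18.7 CPM), Tmpo (248 CPM), Gimap6 (8.37 CPM) and Bbc3 (1.24 CPM). KO replicate 2 stood apart for Ets1 (969 CPM), Nr4a1 (28.5 CPM) and Kmt5a (69.6 CPM). KO replicate 4 stood apart for Actn1 (1103 CPM), Ckap4 (4.94 CPM) and Nfic (22.6 CPM), and KO replicate 1 for Fyb (20.9 CPM) and H2-Aa (10.5 CPM). KO replicate 3 is the female KO library. No part of sex in these values was tested beyond the covariate fit.

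For 62 of the genes described, the KO minus WT change differed between thymic and naive cells at an adjusted p under 0.05 of the interaction in edgeR. Values are the thymic minus the naive log2 change. In the replication and mitosis genes it was 0.46 for Mcm2, 0.67 for Mcm3, 0.53 for Mcm4, 0.58 for Mcm5, 0.57 for Mcm6, 1.04 for Pola1, 0.72 for Rrm1, 0.67 for Smc2, 1.10 for Ect2 and 1.03 for Mad2l1. In the chaperones it was 0.61 for Hspd1, 0.68 for Hspe1, 0.34 for Hsp90ab1, 0.50 for Hspa9, 0.43 for Cct7 and 0.37 for Tcp1. Genes of the nucleus and chromatin with a higher thymic change were Lmnb1 (0.76), Lmnb2 (0.49), Tmpo (0.61), Ssrp1 (0.37), Ezh2 (0.77), Nsd2 (1.06) and Suv39h1 (0.55). The others were Nop58 (0.66), Eif5a (0.29), Tpi1 (0.57), Flna (0.33), Vim (0.38), Tubb3 (0.96), Crip1 (0.95), Eomes (1.01), Dock5 (0.71), Chn2 (1.51), Gcat (3.66) and Pltp (2.05).

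A lower thymic change was found in factors of T cell identity and rest, with Satb1 at -0.56, Ets1 at -0.42, Tcf7 at -0.41, Tcf12 at -0.36, Foxp1 at -0.30, Foxo3 at -0.45, Btg1 at -0.52, Btg2 at -0.64, Sox4 at -1.54 and Ikzf2 at -2.31. It was -1.83 for Nr4a1, -0.78 for Nfkbia and -0.50 for Sesn1. Among chromatin genes it was -1.04 for Kdm5b, -0.39 for Kdm4a, -1.01 for Kdm6b and -0.35 for Jarid2. The others were Bhlhe40 (-2.29), Nrp1 (-2.05), Lmna (-3.18), Itgal (-0.59), Gimap6 (-0.97), Abcg1 (-0.64), Pdk2 (-0.80), Pip5k1c (-0.41), Sema6c (-1.92) and Colq (-1.68). The naive changes of Bhlhe40 (4.72 ± 0.31) and Nrp1 (4.89 ± 0.23) were positive, as were their thymic changes, while Lmna and Ikzf2 were not called in thymic cells.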

How the results depend on the processing

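The count of 1919 called genes ranged from 1771 to 2423 over 9 alternatives and from 1409 to 1792 without 1 library. Higher calls were 850 to 1280 over the alternatives and 890 to 1152 without 1 library. Lower calls rose to 1573 with mean log centring and were 640 to 849 otherwise, and 507 to 640 without 1 library. For the difference between subsets the 653 calls ranged from 612 to 758 and, without 1 library, from 461 to 628, of which 260 to 336 higher and 201 to 313 lower. Its 310 lower calls fell to 201 without WT thymus replicate 2. With the replicate block there were 1906 calls, 1210 higher and 696 lower, and 1732 shared with the fit without it. Same-numbered KO and WT libraries had correlations of 0.08, -0.1092 and -0.1895, which gives no pairing, and the block fit for the difference gave 714 calls. Of 181 called genes described, 154 kept the call under each alternative and without each library. The change of Ikzf2 ranged from -0.14 to 0.06 without 1 library, above 0 without WT replicate 2, and that of Lmna from -0.38 to 0.105, above 0 without KO replicate 2 (0.105) or WT replicate 1 (0.037), none of these 3 called. Beyond those named in the text, calls were lost for Tubb3, Ccl5, Egr1, Hsph1, Hspa8 and Rag1 in the fit of only the libraries compared, for Egr2, Hnrnpu, Hspa8, Rag1 and Itgax with no filter, for Egr2, Hnrnpu, Itgal and Itgax with the block, for Itgal with DESeq2, RLE and no robust estimates, and for Rag1 with mean log centring. Calls were gained for Cd44, Dot1l, Ezh2, Mki67, Top2a and Tcf7 under 1 or more alternatives, Tcf7 with mean log centring and Ezh2 in the fit of only the libraries compared. The cause was not tested. Depth limits genes with few counts, such as Cxcr3, Themis2 and Plce1.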
